A study of Mus musculus with 24 samples.

Results

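A 7 Mb stretch of mouse chromosome 13 with many KRAB zinc finger genes held 315 of the 20726 windows at which 5-hydroxymethylcytosine (5hmC) was listed as different between 2 mouse embryonic stem cell lines. The windows were chosen by position and by presence in the deposited lists of differential windows, with a start from 61000000 to 68000000 of GRCm38. Of these, 250 were higher in Wt25 and 65 were higher in AA10. Since the members were selected on the contrast itself, their direction is given as a description with no test.

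Both lines were made from embryonic stem cells that lacked Tet1, Tet2 and Tet3, on a mixed C57BL/6J-129V background, and were grown in 2i medium with leukemia inhibitory factor. Wt25 carried lentiviral wild-type Tet3 and AA10 carried lentiviral phospho-mutant Tet3. Each line was 1 puromycin-selected clone, so clone and construct cannot be told apart. DNA fragments with 5hmC were pulled down by an antibody (5hmC-DIP) in 3 libraries per line, and the genome was compared in 200 bp bins. The lists gave positions and, for most windows of the segment, a gene. They gave no level, fold change or depth, so the size of a difference and its spread over libraries could not be given.

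Tet3 is an enzyme that oxidises 5-methylcytosine to 5hmC, mostly at CpG sites. KRAB zinc finger proteins are DNA-binding repressors: an array of C2H2 fingers, encoded largely by the last exon, reads the DNA, and the KRAB domain, encoded by earlier exons, recruits the co-repressor Trim28. Their genes lie in clusters that grew by duplication, and many of them silence transposable elements in embryonic stem cells.

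The following sequences from GRCm38.p6 show what kinds of DNA the windows held. Of all the windows, 2 lay in an exon that encodes fingers, both in the last coding exon of Zfp934 and both higher in Wt25. They are shown on the strand of the gene, with each stretch that encodes a whole C2H2 finger in capitals.
Zfp934, chr13:62518203-62518400, minus strand: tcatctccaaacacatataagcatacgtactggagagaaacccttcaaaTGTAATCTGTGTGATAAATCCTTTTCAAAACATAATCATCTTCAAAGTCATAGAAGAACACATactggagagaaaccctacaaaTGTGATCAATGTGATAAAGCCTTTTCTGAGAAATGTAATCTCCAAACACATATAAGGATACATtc
Zfp934, chr13:62518603-62518800, minus strand: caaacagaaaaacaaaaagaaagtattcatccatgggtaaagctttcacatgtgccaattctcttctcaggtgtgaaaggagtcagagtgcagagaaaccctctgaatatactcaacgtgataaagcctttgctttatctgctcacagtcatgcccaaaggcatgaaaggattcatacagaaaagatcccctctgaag
The first of these held 2 whole fingers and the second, at the start of the exon, held none.

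A window higher in AA10 lay on the KRAB-encoding exon of Zfp459, shown on the strand of the gene with the codons that matched a KRAB pattern in capitals.
Zfp459, chr13:67413803-67414000, minus strand: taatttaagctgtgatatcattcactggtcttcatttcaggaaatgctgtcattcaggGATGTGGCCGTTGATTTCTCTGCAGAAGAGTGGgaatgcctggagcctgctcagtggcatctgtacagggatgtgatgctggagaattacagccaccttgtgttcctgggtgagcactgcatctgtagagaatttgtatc
Its closest other copy in the genome aligned over 99.0% of its length with 97.4% identity.

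The first AA10 window inside a gene lay in an intron of Gm49357, a non-coding gene in GENCODE. RefSeq places it in Gm9595, a zinc finger gene with 19 fingers. Its closest copy lay in the stretch of Zfp934 where windows were higher in Wt25. They are shown in the same sense, with the bases that differ in capitals.
Gm49357, chr13:61718603-61718800, plus strand: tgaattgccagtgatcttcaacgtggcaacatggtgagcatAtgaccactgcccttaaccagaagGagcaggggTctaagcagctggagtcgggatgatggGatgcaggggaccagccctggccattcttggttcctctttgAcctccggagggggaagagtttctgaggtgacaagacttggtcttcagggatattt
Closest copy, chr13:62533731-62533928, minus strand: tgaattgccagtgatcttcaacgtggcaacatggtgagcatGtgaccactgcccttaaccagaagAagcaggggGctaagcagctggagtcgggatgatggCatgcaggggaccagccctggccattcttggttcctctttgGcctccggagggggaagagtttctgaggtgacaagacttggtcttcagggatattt
These differed at 5 bases, and the copy overlapped 2 windows listed as higher in Wt25. Near-identical DNA was thus listed in opposite directions at these places.

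The first window inside Vmn2r-ps105, a vomeronasal receptor pseudogene, as GENCODE draws it, is shown for the most heavily copied group, with its CpG in capitals. RefSeq starts the pseudogene at chr13:66513021, beyond this window.
Vmn2r-ps105, chr13:66512203-66512400, plus strand: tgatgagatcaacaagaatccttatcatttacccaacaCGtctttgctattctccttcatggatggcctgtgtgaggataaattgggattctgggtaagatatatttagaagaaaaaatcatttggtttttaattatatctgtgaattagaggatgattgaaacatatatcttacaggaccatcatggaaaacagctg
This window was higher in Wt25 and had 11 full copies elsewhere. A base-for-base copy lay at chr13:66356518-66356715 on the other strand, and no window was listed there.

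The window whose 32-base words (32-mers) had the highest median number of copies is shown for comparison, with its CpGs in capitals.
Gm17514, chr13:66202203-66202400, plus strand: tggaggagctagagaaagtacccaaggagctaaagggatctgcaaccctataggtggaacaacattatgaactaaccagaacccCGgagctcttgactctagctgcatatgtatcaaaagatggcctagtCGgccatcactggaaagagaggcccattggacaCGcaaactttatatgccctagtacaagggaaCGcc
It lay within a non-coding gene and was entirely repeat-marked in the reference. Its 32-mers occurred a median of 16550 times in the genome.

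The windows were not spread evenly over the segment. A run was taken as at least 5 windows of 1 direction with gaps of at most 10 kb, and 4 runs held 236 of the 315 windows. They held 210 Wt25 windows and 26 AA10 windows. Outside them, 40 windows were higher in Wt25 and 39 in AA10, so the excess of Wt25 windows lay in the runs. Because runs were defined by the direction and spacing of these same windows, this split is a description only. Of 314 pairs of neighbouring windows, 295 had the same direction and 19 did not. Among the gaps between successive Wt25 windows, 104 of 249 were 0 bp, and the median was 200 bp. Among those between AA10 windows, 13 of 64 were 0 bp, and the median was 6200 bp. Over all bins of the genome without unknown bases, 0.0914% were listed as higher in Wt25 and 0.0652% as higher in AA10. The rest of chromosome 13 held 462 Wt25 windows and 769 AA10 windows.

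**Figure D1:**
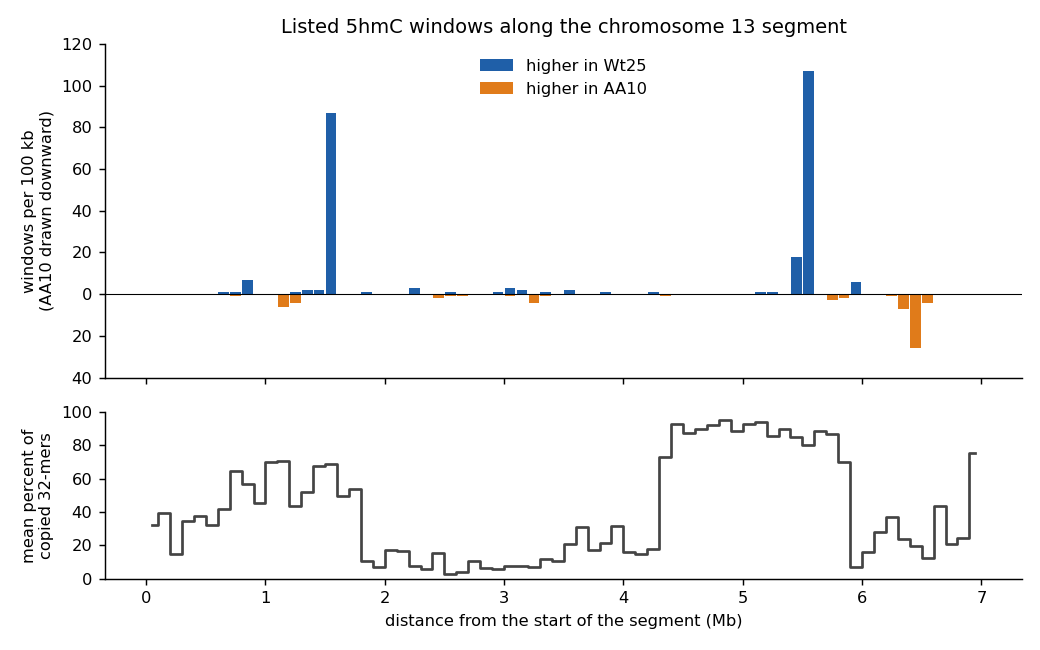
Windows per 100 kb (upper panel, Wt25 upward in blue, AA10 downward in orange) and mean percent of copied 32-mers per 100 kb (lower panel) against distance from the start of the segment in Mb. The Wt25 windows stand in 2 tall peaks, and the AA10 windows gather near the far end, where no Wt25 window was listed.

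The run at Zfp934 (chr13:62514403-62589400) held 86 windows, all higher in Wt25, in 75.0 kb. They made up 22.9% of its bins, and the median gap between windows was 200 bp. Zfp934 is a KRAB zinc finger gene with 11 C2H2 matches, and 83 windows had their midpoint in its body as drawn by GENCODE vM21 (chr13:62479827-62571199, minus strand). RefSeq, which draws it at chr13:62516795-62579321, also gave 83.

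Zfp935 is the neighbouring zinc finger gene, and its count turned on the annotation. GENCODE drew it to chr13:62453715-62558511, across most of Zfp934, and 75 windows then lay in it. RefSeq drew it at chr13:62453016-62466852 with 8 fingers, and 0 windows lay in it. The windows counted for Zfp935 were therefore windows of the stretch it shares with Zfp934.

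The largest group did not lie in a typical zinc finger gene. A pair of runs around the non-coding gene Gm26806 held 124 windows, all higher in Wt25. The first (chr13:66462403-66487000) held 16 windows in 123 bins (24.6 kb). The second (chr13:66499603-66549200) held 108 windows in 49.6 kb, or 43.5% of its bins, with a median gap of 0 bp. By GENCODE, Gm26806 (chr13:66503160-66519887) held 39 windows, and the pseudogene Vmn2r-ps105, which overlaps it, held 14. RefSeq gave Vmn2r-ps105 11 windows, and gave 22 to the non-coding gene Gm46428 (chr13:66519666-66526631). Gm46427 held 8 windows by GENCODE, which calls it a pseudogene, and 5 by RefSeq, which draws a coding gene with 16 fingers. These 124 windows, 49.6% of the Wt25 windows, lay mostly outside the bodies of zinc finger genes.

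The deposited list gave a different picture of this group, as it named genes without requiring overlap. It assigned 125 Wt25 windows to 2410141K09Rik, a zinc finger gene with 14 fingers, but only 1 of them lay in the gene body. The median distance from these windows to the gene was 78.6 kb. For Zfp934, 82 of the 86 windows assigned to it lay in its body. In all, 91 of 241 Wt25 windows and 26 of 64 AA10 windows with an assigned gene lay inside that gene. No gene was given for 9 Wt25 windows and 1 AA10 window of the segment.

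The windows higher in AA10 gathered among other zinc finger genes. The run at Zfp459 (chr13:67403203-67490600) held 26 windows in 87.4 kb, or 5.95% of its bins, with a median gap of 3200 bp. Zfp459 held 7 windows, Zfp874a held 6 and Zfp874b held 3, all higher in AA10. RefSeq draws Zfp459 longer and gave it 13 windows, with 1 in Zfp874a and 4 in Zfp874b. Single windows lay in Zfp953, Zfp58, Zfp748 and Zfp729b, and 2 lay in Zfp456, again all higher in AA10. No Wt25 window of the segment lay beyond 67 Mb.

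Among the other genes with at least 3 windows, the non-coding gene Gm7240 held 5 Wt25 windows, and 2010111I01Rik, an aminopeptidase gene that RefSeq names Aopep, held 3. The non-coding gene Gm48228 held 4 AA10 windows, and 1810034E14Rik and Gm48900, also non-coding, each held 3. Gm28041, which GENCODE draws as a coding gene across Zfp953 and Zfp456, held 5 AA10 windows.

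Few genes held windows of both directions. Zfp808, with 22 fingers, held 1 Wt25 window and 2 AA10 windows by GENCODE, but 0 and 2 in the shorter RefSeq body. Gm49357 and Ptch1, the Hedgehog receptor gene, each held 1 of either direction.

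**Figure D2:**
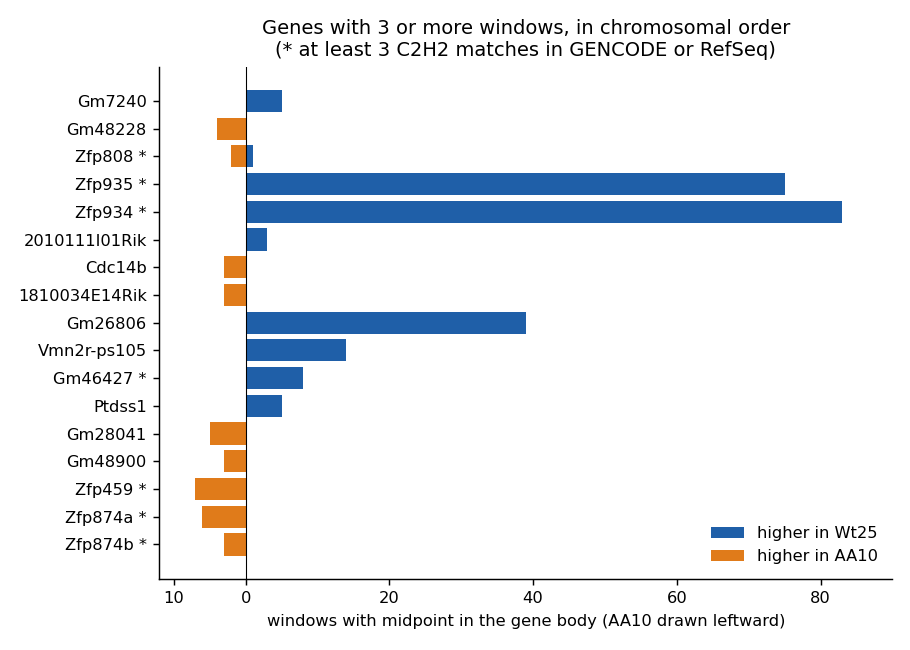
Number of windows with their midpoint in the body of each GENCODE gene with 3 or more windows, in chromosomal order, with Wt25 to the right in blue and AA10 to the left in orange. Zfp934 with 83 and Zfp935 with 75 share most of their windows, and Zfp808 alone has both directions.

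Most zinc finger genes of the segment held no window, and the same was true of its other genes. By GENCODE, 22 of 35 other protein-coding genes and 204 of 222 non-coding genes or pseudogenes held none. Among 47 genes with at least 3 C2H2 matches in either annotation, 6 held Wt25 windows, 10 held AA10 windows, 1 of these held both, and 32 held none. Their bodies took up 13.8% of the bins of the segment and held 94 Wt25 windows (37.6%) and 24 AA10 windows (36.9%). Of the 94, 83 lay in Zfp934 and 8 in Gm46427, so the Wt25 share came mostly from 1 run. Zfp935 counts among the 6 by GENCODE only. By RefSeq, 4 of 51 such genes held Wt25 windows, 11 held AA10 windows and 0 held both. A KRAB pattern was found in 31 of the 47 genes, and the lack of a match in the others says only that these letters were not found. None of the 9 cathepsin genes, which encode lysosomal proteases, held a window, and their bodies took up 0.886% of the bins. The lists assigned 1 Wt25 and 1 AA10 window to the cathepsin gene Ctsl, both outside its body. Other protein-coding genes, with 22.0% of the bins, held 14 Wt25 (5.6%) and 13 AA10 windows (20.0%). Among these, Ptdss1, which encodes a phosphatidylserine synthase, held 5 Wt25 windows, and Cdc14b, which encodes a phosphatase, held 3 AA10 windows. This group also took in Gm28041, Gm28044 and Gm26965, which had a KRAB pattern but 0 finger matches. They held 5, 1 and 1 AA10 windows, and that of Gm28044 was also in Gm28041. Some of these windows were already counted in Zfp953 and Zfp456.

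Few windows lay in finger exons, taken as exons that encode at least 3 whole C2H2 fingers. Of 250 Wt25 windows, 2 (0.8%, 95% Wilson interval 0.22 to 2.87%) had their midpoint in such an exon, and of 65 AA10 windows 0 did, for which the Wilson upper limit is 5.58% and the limit from a floor of 3 counts is 4.62%. These exons covered 253 of 35001 bins (0.723%), so the Wt25 share was near that of the segment. The intervals cover counting error only, since neighbouring windows are not independent. Introns held 114 Wt25 windows (45.6%) and 35 AA10 windows (53.8%), against 37.6% of all bins. With RefSeq these shares were 39.6% and 43.1%, against 38.7% of all bins, so the Wt25 difference turned on the annotation. Elsewhere in the genome, introns held 48.5% of Wt25 and 42.9% of AA10 windows by GENCODE. Promoters held 18 Wt25 (7.2%) and 4 AA10 windows (6.15%), against 5.23% of all bins, and termination sites held 18 (7.2%) and 5 (7.69%), against 5.17%. Of the Wt25 windows in promoters and in termination sites, 17 and 18 lay in the runs. Non-coding exons (2.38% of all bins) held 9 Wt25 and 2 AA10 windows, and UTRs (1.21%) held 1 and 2. Coding exons with fewer than 3 whole fingers (0.771%) held 2 each. Intergenic DNA held 86 Wt25 (34.4%) and 15 AA10 windows (23.1%), against 47.1% of all bins. These features follow the basic transcripts, which can be shorter than the gene body, so 9 of the 86 and 1 of the 15 also lay in a gene body, 7 of them in that of Zfp934.

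The Wt25 windows of the segment consisted largely of copied sequence. The share of a window's 32-mers that occurred more than once in the genome had a median of 82.3% in Wt25 windows and 19.2% in AA10 windows. It was 31.1% in unlisted bins of the segment, above the AA10 windows, and 0% for windows of either list elsewhere. Copied windows did occur elsewhere. There, 9.50% of Wt25 and 17.8% of AA10 windows had at least 50% of their 32-mers copied, against 85.2% and 35.4% in the segment. The median copied share was 80.8% in the Zfp934 run, 97.3% in the Gm26806 runs and 8.68% in the Zfp459 run. For Wt25 windows outside the runs it was 28.7%, and for AA10 windows outside the run 35.9%. Bins of the runs that were not listed were copied to a similar extent, with medians of 72.5% in the Zfp934 run and 100% in the longer Gm26806 run.

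**Figure D3:**
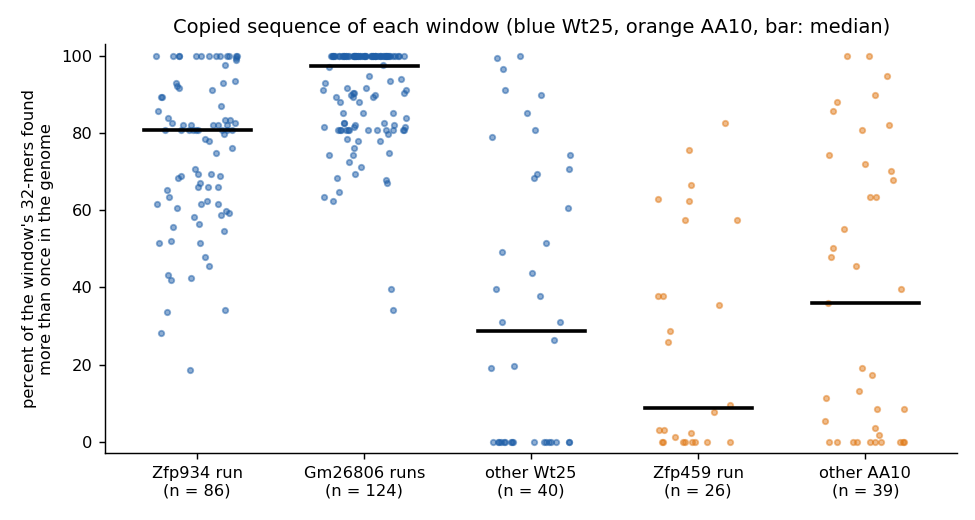
Percent of each window's 32-mers found more than once in the genome, 1 point per window, by group of windows, with the median as a bar. The Gm26806 runs lie highest, with a median of 97.3%, and the Zfp459 run lies lowest, with a median of 8.68%.

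The copies lay mainly within the segment. A copy over at least 90% of the window with at least 90% identity was found for 80 of 86 windows of the Zfp934 run and for all 124 windows of the Gm26806 runs. It was found for 8 of 26 windows of the Zfp459 run. The closest copies had a median identity of 98.5%, 99.5% and 96.1%, respectively. For 70 windows of the Zfp934 run and all 124 of the Gm26806 runs, the closest copy was in the segment. For the Zfp934 run, 52 of these copies lay at chr13:62021101-62223235, all in the opposite orientation. This stretch overlaps Zfp808 and also Gm3325, which RefSeq draws with 22 fingers and GENCODE calls a pseudogene. That stretch held 1 Wt25 window and 6 AA10 windows. For the Gm26806 runs, 65 lay at chr13:66186759-66367933, with 2 Wt25 windows listed there, and 29 lay at chr13:65935719-65970488, with none.

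Some copies of listed windows were listed themselves. The windows of the Gm26806 runs had a median of 16 full copies in the segment, and 5 of the 124 had a copy that was itself listed as higher in Wt25. Over all bins of the segment, 0.714% were listed as higher in Wt25 and 0.186% as higher in AA10. Whether copies were listed more or less often than other bins was not tested. Over the segment, 14 pairs of listed windows that were copies of each other were both higher in Wt25, and 4 pairs had opposite directions. The longest stretch with no window of either list ran from chr13:65317800 to 66189601, where the mean copied share per 500 kb reached 90.7%. Reads were kept by the authors only where they aligned to 1 place. In 53 Wt25 windows and 1 AA10 window the whole window had an exact copy elsewhere. The part of copied sequence in the direction of these windows was not tested.

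Each listed 200 bp bin of the segment held a CpG, while 34.1% of the unlisted bins held none. Within the longer Gm26806 run, 0 of 108 listed and 92 of 140 unlisted bins (65.7%) lacked a CpG. Within the Zfp934 run the counts were 0 of 86 and 113 of 289 (39.1%). Over the stretch given in the lists, which leaves out the first bases of each bin, Wt25 windows held 2.04 ± 1.64 CpGs (SD over 250 windows) and AA10 windows 2.69 ± 1.87 (SD over 65 windows). Elsewhere in the genome the Wt25 windows held 3.27 ± 2.53 CpGs and the AA10 windows 3.16 ± 2.36. Over the same stretch, 2 of 250 Wt25 windows (0.8%) and 0 of 65 AA10 windows of the segment had no CpG. Elsewhere, 50 of 11846 Wt25 windows (0.422%) and 32 of 8565 AA10 windows (0.374%) had none. The scarcity of listed windows without a CpG was therefore not particular to the segment.

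**Figure D4:**
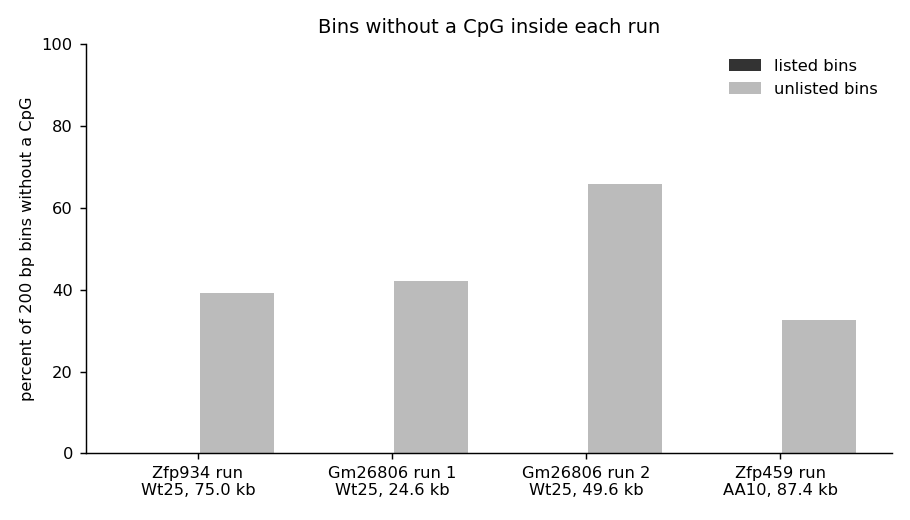
Percent of 200 bp bins without a CpG inside each of the 4 runs, for listed bins (dark) and unlisted bins (grey). The listed bins are at 0% in all 4 runs, and the unlisted bins lie between 32.6% and 65.7%.

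The first windows inside started at 61683803 (Wt25) and 61718603 (AA10), and the last at 67543603 and 67596603 (both AA10). The nearest windows outside started at 60760403 and 60804403 before it, and at 68222003 and 68222203 after it, all higher in Wt25.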

How the data were processed

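5hmC-DIP libraries of Wt25 and AA10 (3 each) underlie the lists. Per the study's methods and the submitters' processing notes, the authors aligned reads to GRCm38 with STAR, kept uniquely aligned reads and removed duplicates with Picard. They compared 200 bp bins with MEDIPS, removed bins that overlapped IgG-DIP peaks or held simple repeats, and assigned genes with HOMER. For the bins, the paper states a cutoff on P and on fold change and names no adjustment for the number of bins. The deposited lists hold positions and, for most windows of the segment, a gene. They hold no counts or scores, so no test or per-library value was possible and the depth behind a window is unknown from them.

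Windows, genes and finger exons were chosen with earlier results of these data known. Features came from GENCODE vM21 basic and RefSeq (GRCm38.p6), by window midpoint. No protein table was used: fingers were matched in translated coding sequences, and a gene with at least 3 matches in either annotation was called a zinc finger gene. Promoters ran from 1000 bp before to 100 bp after a start, and termination sites from 100 bp before to 1000 bp after an end. Copies were counted as 32-mers on both strands and aligned with BLAST+ 2.17.0 megablast (word size 20, E-value limit 1e-10). A full copy needed 90% of the length and 90% identity. Named genes were Zfp934, Zfp935, genes with at least 3 windows, genes with both directions and genes with a window in a finger exon. Others were named after their values were seen, among them 2410141K09Rik and the single-window zinc finger genes, as were the Zfp459, Vmn2r-ps105 and closest-copy sequences and the definition of runs. The steps were tested on simulated sequences. Alternatives were joined windows, shifted limits, RefSeq in place of GENCODE, other word lengths and unmarked windows.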

Additional observations from a re-analysis of the deposited data

How the results depend on the processing

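Joining touching windows left 146 Wt25 regions, and joining those within 1 kb left 61. Without the runs, a setting chosen after seeing the data, 40 Wt25 and 39 AA10 windows remained. By the gene the lists assign, 219 Wt25 and 49 AA10 windows belonged to zinc finger genes, since these genes need not overlap the window; with touching windows joined, 49 Wt25 regions lay in such genes. The share of windows with at least 50% of their words copied was 85.2% for Wt25, 90% with 24-mers and 70.0% with 50-mers. For AA10 it was 35.4%, 21.5% with 50-mers and 23.9% among windows outside repeat marks. The median gap became 800 bp for Wt25 and 9600 bp for AA10 once touching windows were joined. With RefSeq in place of GENCODE, chosen after seeing the data, AA10 windows in other protein-coding genes fell from 13 to 6, in non-coding genes from 18 to 10 and at termination sites from 5 to 1, while non-coding exons went from 9 to 2 for Wt25 and from 2 to 5 for AA10. The other settings run left the tabulated counts within 1.5 times and shares and means within their interval or SD; counts for single genes were compared only between GENCODE and RefSeq. No paired analysis was possible because the lists hold no value per library and no result comes from a test. Depth, fold change and the copy number of the segment in each clone were not analysed here.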
